A study of Homo sapiens with 6 samples.

Results

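NFE2L2 encodes NRF2, a transcription factor that switches on genes for antioxidant and detoxifying enzymes, and 9 genes known as its targets were examined with it: NQO1, GCLC, GCLM, TXNRD1, SRXN1, HMOX1, AKR1C1, AKR1B10, and OSGIN1. The members were found as every probe whose gene name in the scanner files is one of these 10 genes, which gave 13 probes among 36337 gene names on the array. RNA was collected 72 h after transfection of 3 established oral squamous cell carcinoma (OSCC) lines, HSC-3, KON, and Ca9-22, with either siDLEU1-2, a small interfering RNA against the long noncoding RNA DLEU1, or a universal negative control siRNA (siCtrl). Each line gave 1 one-color array per siRNA, 6 arrays in all, so replication comes from the lines alone, and no error can be given for a change inside 1 line. All lines received the transfection reagent Lipofectamine RNAiMAX, and untransfected cells were not analysed here. A single siRNA against DLEU1 was used on these arrays, so loss of DLEU1 and any other effect of that siRNA cannot be told apart.

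In resting cells, KEAP1 holds NRF2 and passes it to a ubiquitin ligase for degradation. Oxidants and electrophiles modify KEAP1, after which NRF2 builds up in the nucleus, pairs with a small MAF protein, and binds antioxidant response elements, whereas BACH1 competes for the same elements and represses them. NRF2 activity is therefore set largely at the protein level, which arrays do not measure, and it is known to be raised in many squamous carcinomas.

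After DLEU1 knockdown, 2 of the 9 genes measured above background were called higher, TXNRD1 and AKR1B10, by 3 of 11 probes. Over all probes tested, limma called 3.98% higher and 8.50% in either direction. No member was called lower, and among the 19956 probes tested 4.52% were. Differences between the lines were called for more of the members: limma's F-test over the lines called 9 of 11 member probes, against 53.8% of all probes. KON held the highest levels on both of its arrays for 9 of 11 probes, from 7 of the 9 genes, which was so for 17.3% of all probes.

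A level is given here as the log2 processed signal relative to the 75th percentile of its array, so a level of 0 lies at that percentile, and levels of different probes are not set against each other. The 75th percentile lay between a signal of 200 and 257, and each array showed 43.0% to 45.7% of its probes well above background. In the order HSC-3, KON, Ca9-22, DLEU1 itself stood at levels of 1.39, 2.16, and 1.56 with siCtrl and at -2.71, -1.48, and -1.88 with siDLEU1-2. The 8 squamous epithelial marker genes were above background on all 6 arrays, whereas 4 of 6 fibroblast markers (COL1A2, COL3A1, LUM, and PDGFRB) were so on none. Of the 12 squamous marker probes, 4 were called lower after siDLEU1-2, for KRT6A, SFN, and PKP1. Without regard to the test, 9 of the 12 were lower in all 3 lines, 1 (EPCAM, by a mean log2 difference of 1.09) was higher in all of them, and 2 were mixed, and the part of these differences in the values below was not tested. Of the other fibroblast markers, COL1A1 was above background on all 6 arrays and was called higher, by 1.45 on the log2 scale over the 3 lines (adjusted p = 0.0423, limma). Of 4 leukocyte markers, CD14 and CD68 were above background on all 6 arrays, with CD68 called lower, and none of 3 endothelial markers was above background on all of them.

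The probes behind the called changes are identified by the first 30 of their 60 bases, in lower case, 5′ to 3′, with the position of these bases on the plus strand of hg19. They are shown to identify the probes of the called member genes and of AKR1B15, a close relative of AKR1B10. Those of BACH1 and CBR3, called in the wider list below, are not shown.
TXNRD1, chr12:104732949-104732978: aaatgctggagaagttacacaaggctttgc
AKR1B10, first probe, chr7:134225939-134225968: atcacagtgaacttagtcctgttatagacg
AKR1B10, second probe, chr7:134225799-134225828: atcctctcatttggaagactatcccttcga
AKR1B15, chr7:134262468-134262497: aaattgagtgatgaggagatggcaaccata

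The second and the last AKR1C1 probe are shown because their results differ from one another.
AKR1C1, second probe, chr10:5005636-5005665: aatggattcgaaatatcagtgtgtgaagct
AKR1C1, last probe, chr10:5011936-5011965: gtccccaaatgttacacacatttcagcatt

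Both AKR1B10 probes carry only AKR1B10 among the RefSeq genes of their listed accessions. The AKR1B15 probe lists transcripts of AKR1B15 and AKR1B10, and the first and second AKR1C1 probes list transcripts of AKR1C1 and AKR1C2, so their signals cannot be assigned to 1 gene. No probe carried the name AKR1C2.

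Promoters of the members were searched in RefSeq windows of GRCh38.p14, from 250 bases before to 50 bases after the start site, for TGACNNNGC, the core of the antioxidant response element, on both strands. The windows covered 8 of the 10 genes with 10 promoters, and HMOX1 and AKR1B10 were not matched in that table. The core was found in 3 of these promoters, 1 of GCLM and 2 of TXNRD1, and in 13.3% of the 35116 promoters of the table. The matches are shown with the core in capitals and each on the strand where it reads TGAC.
GCLM, chr1:93909446-93909475, plus strand: tggaagacaaTGACTAAGCagaaatcgtag
TXNRD1, promoter 1, chr12:104215670-104215699, plus strand: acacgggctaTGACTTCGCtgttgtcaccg
TXNRD1, promoter 1, chr12:104215760-104215789, minus strand: ctgtgggaacTGACGGAGCcgaaggacgcc
TXNRD1, promoter 2, chr12:104286919-104286948, minus strand: agagtcagaaTGACAAAGCagaaatccact

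These are matches of letters and not measured binding sites. Of the 2 genes with a match, TXNRD1 was called higher after knockdown and GCLM was not called.

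**Figure D1:**
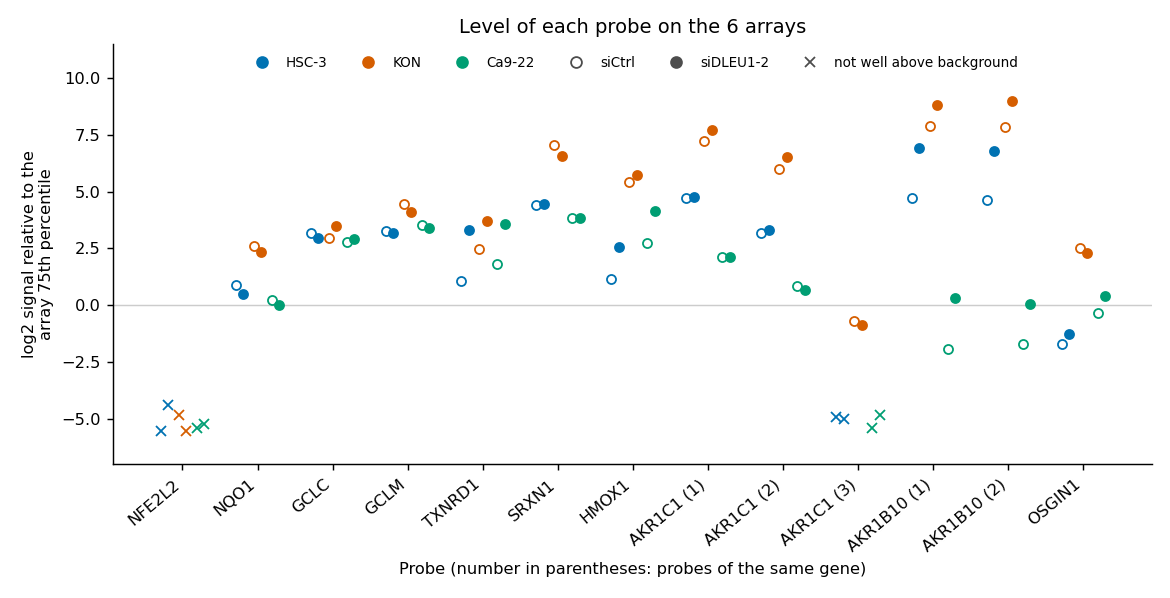
Level of each of the 13 probes on the 6 arrays, as log2 signal relative to the 75th percentile of the array (y axis), by probe (x axis). Color gives the cell line, open circles are siCtrl, filled circles are siDLEU1-2, and crosses are values not well above background. AKR1B10 ranged from -1.92 in Ca9-22 after siCtrl to 9.0 in KON after siDLEU1-2, and NFE2L2 was not well above background on any array.

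The regulator could not be measured. The single NFE2L2 probe, on the minus strand of hg19 at chr2:178095693-178095752 and assigned to NM_006164, was not well above background on any of the 6 arrays. Its processed signals lay between 4.61 and 9.50, so no fold change and no difference between lines is given for it.

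TXNRD1 encodes cytosolic thioredoxin reductase, which uses NADPH to return oxidized thioredoxin to its active form. It was read by 1 probe (chr12:104732949-104733008, assigned to NM_003330). HSC-3 had a level of 1.05 with siCtrl and of 3.33 with siDLEU1-2. In KON the levels were 2.48 and 3.69. In Ca9-22 they were 1.81 and 3.56. All 3 siDLEU1-2 arrays lay above all 3 siCtrl arrays, so the groups did not overlap. No other member probe separated in this way, and none separated downward, where 5.67% and 5.36% of all probes did. In the fit without pairing by line the probe was not called (adjusted p = 0.347, limma). HSC-3 rose the most, by 4.85-fold, followed by Ca9-22 with 3.36-fold and KON with 2.33-fold. The log2 fold changes averaged 1.75 ± 0.53 (SD, n = 3 lines), with a 95% confidence interval from 1.12 to 2.37 (adjusted p = 0.0306, limma). These are bulk RNA values, in which more cells expressing a gene and more of its RNA per cell cannot be told apart. TXNRD1 was also one of the member genes for which the lines were not called different (F-test adjusted p = 0.108).

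AKR1B10 encodes an aldo-keto reductase that reduces reactive aldehydes and retinal, and it is widely used as a readout of NRF2 activity in human squamous tumors. With the first probe, HSC-3 read 4.70 under siCtrl and 6.92 under siDLEU1-2. In KON it read 7.91 and 8.82. In Ca9-22 it read -1.92 and 0.32. The order of the lines was thus the same under both siRNAs, and in every line the siDLEU1-2 array was the higher one. The rise was 4.64-fold in HSC-3 and 4.72-fold in Ca9-22 but 1.89-fold in KON, and the log2 fold changes averaged 1.79 ± 0.76 (SD, n = 3 lines, adjusted p = 0.0433, limma). With quantile normalization the mean was 1.73 and the probe was not called (adjusted p = 0.0509, limma).

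The second AKR1B10 probe lies upstream of the first on the same chromosome strand and gave nearly the same picture. For siCtrl and siDLEU1-2 in turn, HSC-3 read 4.62 and 6.79, KON read 7.85 and 9.0, and Ca9-22 read -1.70 and 0.04. HSC-3 rose by 4.50-fold, KON by 2.21-fold, and Ca9-22 by 3.33-fold, and the log2 fold changes averaged 1.68 ± 0.52 (SD, n = 3 lines; 95% confidence interval 1.07 to 2.30; adjusted p = 0.0307, limma). The probes differed most in Ca9-22, where their signals were lowest, at 66.6 and 77.6 after siCtrl. With normexp, a background correction that draws dim values together, the mean log2 fold changes were 1.55 and 1.48, and both were called. The rise in Ca9-22 was then 2.91-fold and 2.26-fold, against 4.58-fold and 4.36-fold in HSC-3.

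With 2 lines left, limma had little room to call any probe. It called 0 of all 19956 probes without HSC-3, 0 without KON, and 244 without Ca9-22 (4547, 4676, and 4395 at an unadjusted p below 0.05). It called 0 of the 11 member probes in these fits, and 3, 5, and 3 of them had an unadjusted p below 0.05. The TXNRD1 mean was 1.48 without HSC-3, 2.01 without KON, and 1.75 without Ca9-22, with adjusted p from 0.0811 to 0.103, so its direction did not turn. The 2 AKR1B10 probes stayed between 1.44 and 2.23 in the same fits, with adjusted p from 0.0851 to 0.137. Unpaired, with the siRNA alone in the model, limma called 0 of all 19956 probes (1357 at an unadjusted p below 0.05). Of the member probes it likewise called 0 (1 at an unadjusted p below 0.05).

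HMOX1 encodes heme oxygenase 1, which breaks down heme and is an NRF2 target that BACH1 represses. Its probe (chr22:35790122-35790181, NM_002133) has 10 spots on each array, with log2 SDs of 0.03 to 0.05 among the spots of an array. HSC-3 stood at 1.13 with siCtrl and at 2.57 with siDLEU1-2. In KON it was 5.42 and 5.72, and in Ca9-22 it was 2.72 and 4.15. The siDLEU1-2 array was higher in all 3 lines, by 2.71-fold, 1.23-fold, and 2.70-fold. The average of 1.06 ± 0.66 on the log2 scale (SD, n = 3 lines; 95% confidence interval 0.32 to 1.79) was not called after adjustment over all probes (adjusted p = 0.0867, limma).

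For TXNRD1, HMOX1, and both AKR1B10 probes, the fold change was smallest in KON, the line in which their siCtrl levels were highest. For the second AKR1B10 probe the normexp log2 fold changes of KON and Ca9-22 were close, at 1.12 and 1.18. Both AKR1C1 probes, also highest in KON after siCtrl, went the other way and had their largest log2 fold change there, 0.51 on each. Whether the change differs between lines was not tested, because each line has 1 array per siRNA.

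**Figure D2:**
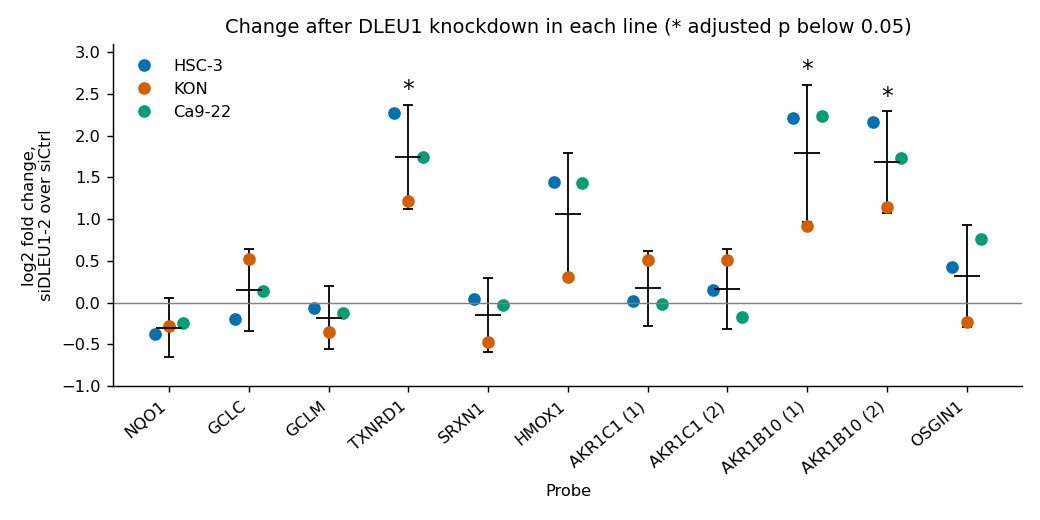
Log2 fold change of siDLEU1-2 over siCtrl (y axis) for the 11 probes above background (x axis). Colored points are the 3 cell lines, the short bar is their mean, whiskers are limma's 95% confidence interval, and asterisks mark an adjusted p below 0.05. TXNRD1 and both AKR1B10 probes have means of 1.75, 1.79, and 1.68, and the intervals of NQO1, GCLC, GCLM, SRXN1, AKR1C1, and OSGIN1 include 0.

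NQO1, a quinone reductase and one of the best known NRF2 targets, was not called. Its probe (minus strand, chr16:69744274-69744333, NM_000903) read 0.87 and 0.49 (HSC-3), 2.62 and 2.34 (KON), and 0.23 and -0.01 (Ca9-22), for siCtrl and siDLEU1-2 in turn. The siDLEU1-2 array was the lower one in every line, by a small and even amount. The log2 fold changes averaged -0.30 ± 0.07 (SD, n = 3 lines; 95% confidence interval -0.65 to 0.05; adjusted p = 0.221, limma). That interval lies wholly below the one of TXNRD1.

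GCLC and GCLM encode the catalytic and modifier subunits of glutamate-cysteine ligase, which makes the precursor of glutathione. GCLC (minus strand, chr6:53362197-53362256, NM_001498) read 3.17 and 2.97 (HSC-3), 2.96 and 3.48 (KON), and 2.80 and 2.93 (Ca9-22). Its lines moved in opposite directions, and the log2 fold changes averaged 0.15 with a 95% confidence interval from -0.34 to 0.65 (adjusted p = 0.632, limma). GCLM (NM_002061) read 3.25 and 3.19 (HSC-3), 4.47 and 4.12 (KON), and 3.54 and 3.42 (Ca9-22). All 3 lines were slightly lower after siDLEU1-2, with a mean of -0.18 and an interval from -0.55 to 0.20 (adjusted p = 0.461, limma).

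SRXN1 encodes sulfiredoxin, which reactivates overoxidized peroxiredoxins. Its probe (minus strand, chr20:627563-627622, NM_080725) read 4.40 and 4.45 (HSC-3), 7.06 and 6.58 (KON), and 3.85 and 3.82 (Ca9-22). Only KON moved by more than 0.1 on the log2 scale, downward, and the log2 fold changes averaged -0.15 (95% confidence interval -0.59 to 0.29; adjusted p = 0.594, limma).

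OSGIN1 encodes a growth inhibitor induced by oxidative stress. Its probe (chr16:83999149-83999208, NM_182981) read -1.70 and -1.28 (HSC-3), 2.53 and 2.30 (KON), and -0.34 and 0.42 (Ca9-22). HSC-3 and Ca9-22 were higher and KON was lower after siDLEU1-2. The mean of 0.32 ± 0.51 (SD, n = 3 lines) did not pass the test (adjusted p = 0.423, limma).

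AKR1C1 encodes a hydroxysteroid dehydrogenase of the aldo-keto reductase family and, unlike AKR1B10, was not called. The first probe read 4.73 and 4.74 (HSC-3), 7.22 and 7.72 (KON), and 2.11 and 2.10 (Ca9-22). The second probe (chr10:5005636-5005695) read 3.16 and 3.31, 6.01 and 6.52, and 0.84 and 0.67 in the same order. Both averaged a log2 fold change of 0.17, with adjusted p of 0.556 and 0.593 (limma). The last probe (chr10:5011936-5011995), assigned to an Ensembl transcript, was above background in KON alone, at -0.72 and -0.86. KON was at least 6.95-fold above HSC-3 and at least 5.96-fold above Ca9-22 on that probe, where each dim array counts at its own value or, if that is higher, at the dimmest level still well above background.

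Counted over 2-fold within each line, HSC-3 had 4 member probes higher (7.53% of all probes), KON had 2 (7.30%), and Ca9-22 had 4 (6.56%). No member probe was over 2-fold lower in any line, where 6.68%, 7.29%, and 6.46% of all probes were. The 2 probes over 2-fold higher in all 3 lines were those of TXNRD1 and the second AKR1B10 probe, and 2.08% of all probes passed that rule. The median of the mean log2 fold change was 0.17 over the 11 member probes and 0.01 over all probes tested. Line by line, the member median was 0.16 in HSC-3, 0.13 in Ca9-22, and 0.51 in KON, where that of all probes was 0.02.

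The levels of most members also differed between the lines, with TXNRD1 and GCLC as the exceptions. Both KON arrays lay above the other 4 arrays for the probes of NQO1, GCLM, SRXN1, HMOX1, AKR1C1, AKR1B10, and OSGIN1, the last AKR1C1 probe not counted. Both Ca9-22 arrays lay below the other 4 for 7 of 11 probes (20.6% of all), and both HSC-3 arrays for 3 (15.9% of all). For no member probe did both KON arrays lie below the rest (16.1% of all). For these exceptions the F-test called no difference between the lines. The arrays of a line differ in siRNA, so tests between lines hold no repeat of a line under the same siRNA.

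AKR1B10 showed the widest gap. Averaged over both siRNAs, its probes stood highest in KON (8.36 and 8.42), next in HSC-3 (5.81 and 5.71), and lowest in Ca9-22 (-0.80 and -0.83). Ca9-22 was thus 573-fold and 610-fold below KON (adjusted p = 0.0035 and 0.00279, limma) and 97.7-fold and 92.9-fold below HSC-3. Neighbors in the order were also called different, with KON 5.87-fold and 6.57-fold above HSC-3 (adjusted p = 0.0126 and 0.00723, limma). With normexp, the log2 difference between Ca9-22 and KON was -8.55 and -8.63 instead of -9.16 and -9.25, and Ca9-22 lay 61.1-fold and 59.1-fold below HSC-3. AKR1C1 had the same order, and Ca9-22 was 41.2-fold and 45.6-fold below KON by its first 2 probes.

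HMOX1 and OSGIN1 had another order, with HSC-3 lowest. HMOX1 was 13.1-fold higher in KON than in HSC-3 (adjusted p = 0.00678, limma) and 4.38-fold higher than in Ca9-22 (adjusted p = 0.0153). OSGIN1 was 15.0-fold and 5.18-fold higher in KON than in these lines (adjusted p = 0.00572 and 0.00957). With normexp, the OSGIN1 gap between KON and HSC-3 was 8.57-fold. In both genes Ca9-22 was above HSC-3, by 3.0-fold and 2.89-fold (adjusted p = 0.0273 and 0.019).

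NQO1 was 3.48-fold higher in KON than in HSC-3 and 5.16-fold higher than in Ca9-22 (adjusted p = 0.00669 and 0.00574, limma). SRXN1 was 5.25-fold and 7.92-fold higher in KON (adjusted p = 0.00653 and 0.00574). For both genes HSC-3 and Ca9-22 were neighbors whose difference did not pass the test (adjusted p = 0.0527 and 0.0823). GCLM was 2.11-fold higher in KON than in HSC-3 and 1.76-fold higher than in Ca9-22. HSC-3 and Ca9-22 were not called different for GCLM (adjusted p = 0.28, limma). In all, 9 of 11 member probes differed between KON and HSC-3 (36.2% of all probes), 6 between Ca9-22 and HSC-3 (36.6%), and 9 between Ca9-22 and KON (33.2%).

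Among the probes tested, the level of NQO1 over the 6 arrays ran most closely with XRN2 (Pearson r = 0.998), LOC100293516 (r = 0.997), and FIZ1 (r = 0.996). AKR1C1, by its first probe, ran most closely with an unnamed probe (r = 0.999), PRIM2 (r = 0.997), and PPP2R1A (r = 0.997). With 3 lines in 6 arrays such values are easily high, and 25 gene names for NQO1 and 44 for AKR1C1 exceeded 0.99. No such genes are given for NFE2L2, which was not well above background on any array.

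The close relatives of AKR1B10 and AKR1C1 were measured too. AKR1B15, next to AKR1B10 on chromosome 7, was called higher (chr7:134262468-134262527). Its probe read 3.76 and 5.79 (HSC-3), 6.97 and 8.23 (KON), and -2.34 and -0.89 (Ca9-22), for siCtrl and siDLEU1-2. The log2 fold changes averaged 1.58 ± 0.40 (SD, n = 3 lines; adjusted p = 0.0289, limma), and with any 1 of the lines left out the mean was 1.35 to 1.74 and was not called (adjusted p = 0.0737 to 0.103). Ca9-22 was 594-fold below KON on this probe, a fold that rests on dim Ca9-22 values. The dimmest levels still well above background in Ca9-22 were -3.44 with siCtrl and -3.29 with siDLEU1-2. With normexp, the gap of Ca9-22 below KON on the AKR1B10 probes was 375-fold and 397-fold. Since the probe also lists AKR1B10 transcripts, AKR1B10 and AKR1B15 cannot be told apart here.

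AKR1B1, aldose reductase, read 5.04 and 6.71 (HSC-3), 7.88 and 8.51 (KON), and 3.60 and 4.20 (Ca9-22). It was higher in all 3 lines but not called, with log2 fold changes averaging 0.96 (adjusted p = 0.0943, limma). AKR1C3 read 5.25 and 5.87, 7.45 and 7.92, and 1.80 and 2.95, with a mean of 0.75 (adjusted p = 0.0788). AKR1C4 had 2 probes, of which 1 was not above background on any array. Its other probe read 0.86 and 1.43, 3.37 and 3.96, and -2.03 and -1.74, with a mean of 0.48 (adjusted p = 0.111). The line order KON, HSC-3, Ca9-22 was thus common to AKR1B1, AKR1B10, AKR1B15, AKR1C1, AKR1C3, and AKR1C4. Of these relatives AKR1B15 was called along with AKR1B10, on a probe that lists transcripts of both.

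**Figure D3:**
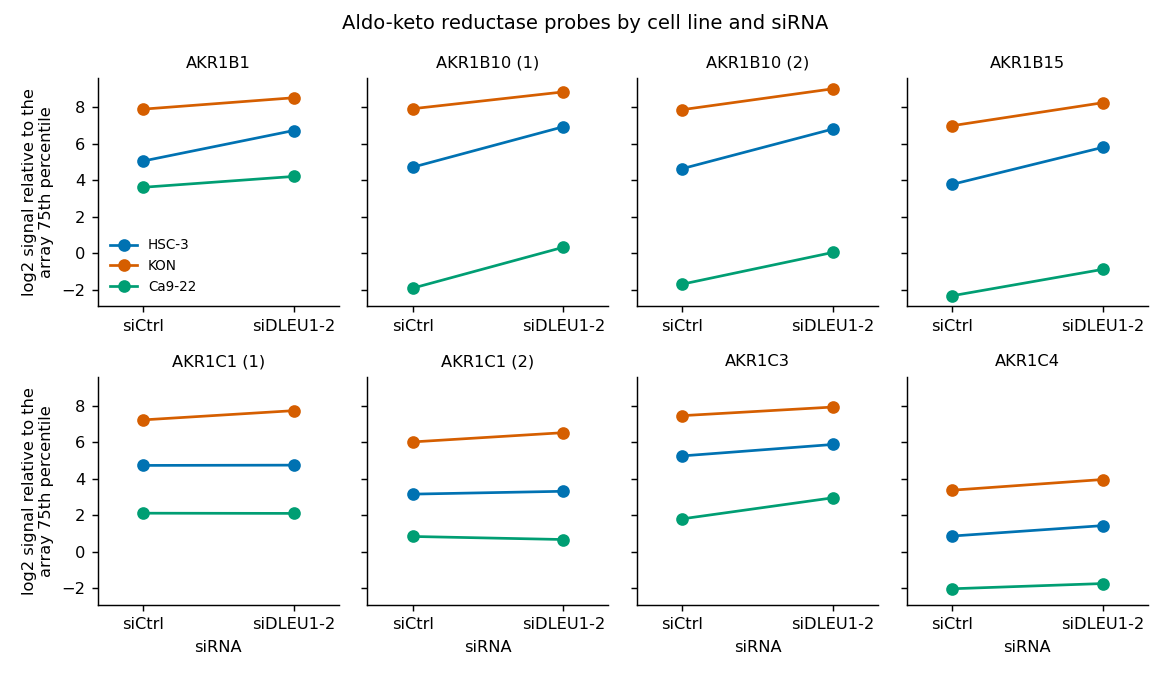
Levels of the 8 probes of AKR1B and AKR1C genes above background, as log2 signal relative to the 75th percentile of the array (y axis), after siCtrl and siDLEU1-2 (x axis). Each colored line joins both arrays of 1 cell line. KON is highest and Ca9-22 lowest in every panel, and the siDLEU1-2 value is the higher one in all 3 cell lines for AKR1B1, AKR1B10, AKR1B15, AKR1C3, and AKR1C4.

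A wider list of 80 other genes of the pathway had probes for 77, and 66 of these genes were tested with 82 probes. AKR1C2, GSTA1, and UGT1A1 had no probe of that name, and 11 genes, among them GSTM1, ALDH3A1, and MGST1, were too dim to test. Of the 82 probes, 2 were called higher (BACH1 and AKR1B15, 3.98% of all probes) and 1 lower (CBR3, 4.52% of all). The called share of this list thus lay below that of all probes. The AKR1B15 probe also lists AKR1B10 transcripts, so its call cannot be assigned to a gene outside the members. The median of the mean log2 fold change was 0.19 over these probes. Counting signs alone, 37 of 82, from 27 genes, were higher in all 3 lines (26.9% of all probes) and 11 were lower (26.7% of all).

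Among the regulators, BACH1, the repressor that competes with NRF2, was called higher. Its called probe (chr21:30717980-30718039) read 2.70 and 3.93 (HSC-3), 2.43 and 3.27 (KON), and 2.02 and 3.09 (Ca9-22). All siDLEU1-2 levels exceeded all siCtrl levels, as was so for 5.67% of all probes, and the fit without pairing did not call it (adjusted p = 0.595, limma). The log2 fold changes averaged 1.05 ± 0.20 (SD, n = 3 lines; adjusted p = 0.0315, limma), and without any 1 of the lines the mean was 0.95 to 1.15 (adjusted p = 0.102 to 0.114). A second BACH1 probe was above background on 3 of 6 arrays and was not tested. The other 11 tested regulator probes, KEAP1 and the small MAF genes among them, were not called.

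CBR3, a carbonyl reductase, was called lower. Its probe (chr21:37518379-37518438) read 1.52 and -0.48 (HSC-3), 2.22 and 0.80 (KON), and -0.24 and -3.37 (Ca9-22), where the last value was not well above background. The log2 fold changes averaged -2.18 ± 0.87 (SD, n = 3 lines; adjusted p = 0.0379, limma). With that dim value raised to the detection floor the mean was -2.16 (adjusted p = 0.0296, limma), and without Ca9-22 it was -1.71. With normexp the size was -1.56, and without any 1 of the lines the adjusted p was 0.0598 to 0.117. The remaining 17 probes of the detoxification and export list were not called, and that list had a median of 0.20.

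None of the 15 glutathione probes, 12 thioredoxin probes, 6 NADPH probes, or 12 heme and iron probes was called by limma. Of them, 4, 3, 2, and 2 had an unadjusted p below 0.05. Among all probes tested, 8.50% were called, and 14.6% were higher and 14.9% lower at an unadjusted p below 0.05. The median log2 fold changes of these 4 lists were 0.01, -0.04, 0.21, and 0.22. The thioredoxin list holds the partners of TXNRD1, such as TXN and PRDX1. The 7 aldo-keto reductase probes, with AKR1B15 as the called one, had a median of 0.48. Of these, 4 were higher in all 3 lines (26.9% of all probes) and 1 was lower in all 3 (26.7% of all). The lower one was AKR7A3, named here after its values were seen. AKR7A3 had all siDLEU1-2 levels (1.64, 1.78, and 1.68) below all siCtrl levels (1.81, 1.98, and 1.82), as was so for 5.36% of all probes, and its mean log2 difference of -0.17 was not called (adjusted p = 0.453, limma).

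**Figure D4:**
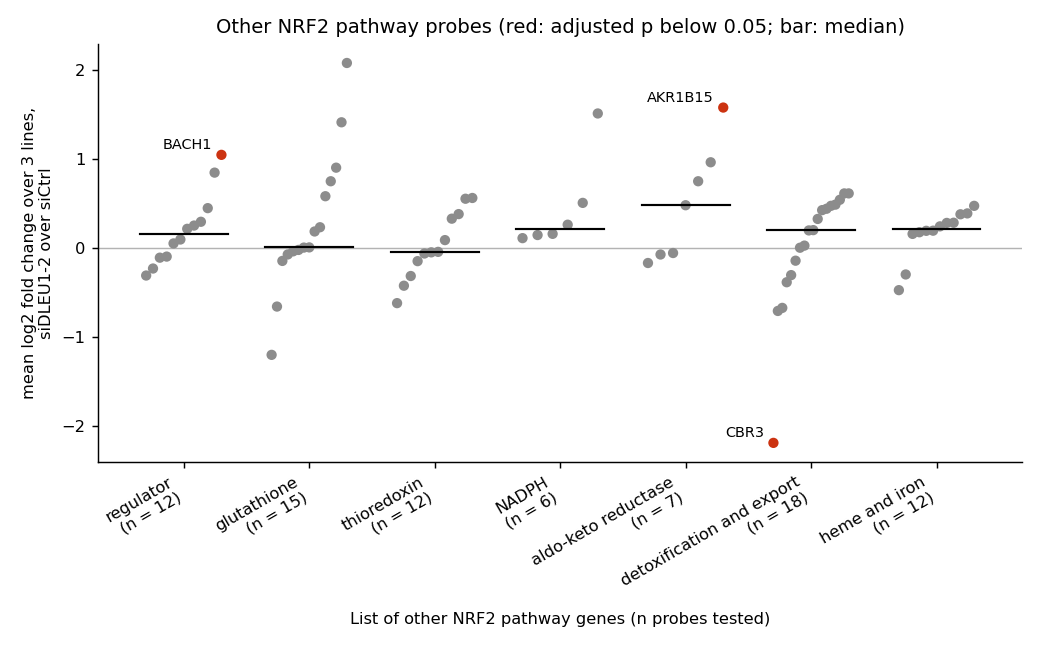
Mean log2 fold change over the 3 lines, siDLEU1-2 over siCtrl (y axis), of the 82 tested probes of other pathway genes, grouped by list (x axis). Each dot is a probe, red dots were called at an adjusted p below 0.05, and bars are list medians. BACH1 (1.05), AKR1B15 (1.58), and CBR3 (-2.18) are the called probes.

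The lines separated this wider list as well. The F-test called 60 of 82 probes (53.8% of all probes), and both KON arrays lay above the other 4 for 38 of 82 (17.3% of all). By pairs of lines, 33 of 82 differed between KON and HSC-3 (36.2% of all), 48 between Ca9-22 and HSC-3 (36.6%), and 52 between Ca9-22 and KON (33.2%). The median log2 difference of KON over HSC-3 was 2.55 over the member probes, 0.35 over the other pathway probes, and -0.07 over all probes. For Ca9-22 over KON these medians were -2.37, -0.86, and -0.07, and for Ca9-22 over HSC-3 they were -0.57, -0.46, and -0.13. Whether the members and the wider list differ was not tested.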

How the data were processed

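The authors deposited Agilent Feature Extraction 10.7.3.1 scanner files, in which the processed signal is an intensity after background subtraction, not normalized between arrays (probe positions on hg19). A series table, also deposited, repeats this intensity in rounded form, to within 0.497%. GeneSpring GX is named in the methods, and its normalization is not given in the sources used here.

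From 50599 probes, control and outlier spots were left out, spots of a probe were averaged, and each array's 75th percentile was subtracted from the log2 signal. The filter kept 19956 probes that, in each line, were well above background on 1 or both arrays. No spot was saturated, and all arrays lay on 1 slide. limma 3.58.1 (R 4.3.3, lmFit and eBayes) was fitted with siRNA and cell line as terms. The code was also run on data simulated from this same model with known changes, which cannot test whether the model suits these arrays. Called means a Benjamini-Hochberg adjusted p below 0.05 over all tested probes. Both arrays of a line form a pair, since they come from 1 line, and their deviations correlated at 0.81 to 0.83. The number of arrays limits the precision. The knockdown p-values measure the spread of the change between lines. The p-values for differences between lines rest on the same residual, how far the siRNA change departs between lines. No line had a second array with the same siRNA, so they do not measure replicate variation of a line.

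The members and gene lists were chosen with earlier results of these data known. Named were all members, called genes of the list that moved the same way in all lines, the AKR1B and AKR1C relatives, and the 3 gene names most like NQO1 and AKR1C1 by Pearson r. Alternatives were other centering, quantile normalization, normexp (offset 50), the series table, other filters, gene means, no block, the methods' t-test, each line or array left out, and a 3-fold threshold. Some probe sequences are not reported here.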

Additional observations from a re-analysis of the deposited data

Results flagged for a closer look

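Of the 11 member probes, 4 were higher in all 3 lines after siDLEU1-2, 2 were lower in all 3, and 5 changed in opposite directions between lines. Over all probes tested, 26.9% were higher in all 3 lines, 26.7% were lower, and the rest were mixed, so mixed directions were common over the array. With 1 array per line and siRNA, these differences between lines were not tested. The log2 fold changes of GCLC spanned 0.72 over the lines, with HSC-3 below 0 and the other lines above it. Those of SRXN1 spanned 0.52, with HSC-3 alone above 0. The first and second AKR1C1 probes spanned 0.52 and 0.67, with Ca9-22 alone below 0 on both. On the first of these, HSC-3 and Ca9-22 were near 0, and with normexp both were below it (-0.03 and -0.02). OSGIN1 spanned 1.0, with KON alone below 0. None of these probes was called over the 3 lines by limma (0 had an unadjusted p below 0.05).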

How the results depend on the processing

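The cell line is the replicate and the block. Without the replicate block, limma called 0 of 19956 probes, 0 member probes, and 0 other pathway probes (1357, 1, and 2 at an unadjusted p below 0.05), against 1697, 3, and 3 with it, and the methods' t-test called 0, 0, and 0 (1373, 1, and 2). With no filter on dim probes, 0, 0, and 0 were called (6816, 4, and 19). Leaving out each line gave 0 to 244, 0 to 0, and 0 to 0, the 244 without Ca9-22. Other pathway calls were 5 with median centering (3 lower), 7 with normexp (3 lower), 4 with quantile normalization (2 lower), and 6 with probes above background on all 6 arrays (2 lower, CBR3 not tested), against 1 lower as reported. Median centering gave 639 higher and 1069 lower among all probes, against 795 and 902. Member probes over 2-fold in all lines numbered 2 to 4 with a line left out (4 without KON) and 0 at 3-fold. The F-test over lines called 5034 probes with the cell line alone and 5583 to 6826 with an array left out, and 8 to 9 member probes. Without KON, GCLC turned to -0.0303, SRXN1 to 0.00971, and the second AKR1C1 probe to -0.00545. With quantile normalization the first AKR1B10 probe had an adjusted p of 0.0509. Over 14 alternatives TXNRD1 ranged from 1.48 to 2.01 (adjusted p = 0.0169 to 0.499). A slide block was not run, as there is 1 slide. Probes not well above background, NFE2L2 among them, are not measured here.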
